A study of Mus musculus with 13 samples.

Results

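Open chromatin around 8 zinc-finger genes was followed across tissues of the mouse embryo at E12.5. The genes were Sall1, Sall2, Sall3 and Sall4 of the Sall family and Sp5, Sp6, Sp8 and Sp9 of the Sp family. A region was counted for a gene when its strongest summit lay within 100 kb of the gene body in the GENCODE M21 annotation of mm10. Of 1356943 distinct regions deposited for 13 ATAC-seq libraries, 1174 met this rule. After overlapping regions among the 50000 strongest of each library were merged, 84 of 110782 consensus regions belonged to the 8 genes. ATAC-seq measures where the Tn5 transposase can insert sequencing adapters into chromatin. A region here is a stretch of DNA in which the authors' peak caller found more insertions than in its surroundings.

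Forebrain (FB) and 2 parts of the forelimb, proximal (PFL) and distal (DFL), were taken from embryos of the B6CBAF1 strain, with no treatment. Wild-type (wt) embryos were compared with embryos homozygous for allele 542 (II1TDOM), in which the distal limb enhancer II1, an HBB promoter and a LacZ reporter were inserted into T-DOM, the regulatory domain on one side of the HoxD cluster on chromosome 2. The allele was kept as 1 breeding line. There were 2 libraries per tissue and genotype, each from 50000 cells of a separate pool of embryos, so the tests measure the spread between pools. An earlier wt DFL library was used only where it is named. Depth, in units of 1000000 tags, was 37.5 to 70.7 per library over the 12 libraries, where a tag is 1 read end. It was 51.4 to 70.7 in FB, and lower in 542 than in wt limb libraries, at 37.5 to 41.4 against 44.1 to 54.5.

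The Sall genes encode nuclear zinc-finger proteins. In the limb, Sall1, Sall3 and Sall4 act in the mesenchyme of the outgrowing bud, and human SALL1 and SALL4 are mutated in syndromes with malformed thumbs. The Sp genes studied here encode the branch of the Sp family with a role in the embryo rather than in every cell. Sp6, Sp8 and Sp9 are expressed in the limb ectoderm and the apical ectodermal ridge, the signalling epithelium at the rim of the bud, where Sp6 and Sp8 are needed for Fgf8 expression. Sp5 is a target of Wnt signalling, and Sp8 and Sp9 also act in neuronal progenitors of the forebrain. Sall2 is expressed in the developing nervous system. In bulk tissue, fewer cells of a type and less accessibility per cell cannot be told apart.

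The tissue labels were compared with the starts of marker genes. In DFL the start of Hoxa13, a distal limb gene, had folds of 8.80 to 10.1 and that of Hoxd13 8.67 to 9.78. In PFL the folds at these starts were 4.56 to 6.38 for Hoxa13 and 3.40 to 4.97 for Hoxd13. The start of the forebrain gene Emx1 reached 6.73 to 8.18 in FB and 2.69 to 4.92 in the limb libraries. Of 6 ectoderm markers, 1 was called in all 4 DFL libraries, 2 in all 4 PFL libraries and 1 in all 4 FB libraries. The ectoderm genes Krt14 and Krt8 had no region at their start in any of the 12 libraries, and Fgf8, which marks the ridge, was called in 1 DFL, 1 PFL and 0 FB libraries. The summed fold over the ectoderm list was 8.18 to 14.7 in DFL, against 12.1 to 15.6 in PFL and 7.31 to 10.4 in FB. Over 5 ridge genes the summed fold was 15.7 to 20.3 in DFL, 14.1 to 18.1 in PFL and 16.2 to 20.7 in FB. Blood markers had no region in the limb libraries. The part of the ectoderm in the results below was not tested.

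Most of the 84 regions lay away from gene starts. Of them, 7 were at an annotated start of one of the 8 genes, 16 at the start of another coding gene and 61 elsewhere, with 54 more than 2 kb from any coding start. The deposited folds of single libraries ran from 2.01 to 29.7. In all 12 libraries, 23 of the 84 regions were among the 50000 strongest, against a share of 17.4% over all consensus regions. Of the 23 regions at a start, 16 were in all 12 lists, as were 6 of the 54 regions more than 2 kb from a coding start. The highest folds belonged to neighbours: the region at the Chd8 start, 84.2 kb from the start of Sall2, had folds of 24.3 to 29.7.

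**Figure D1:**
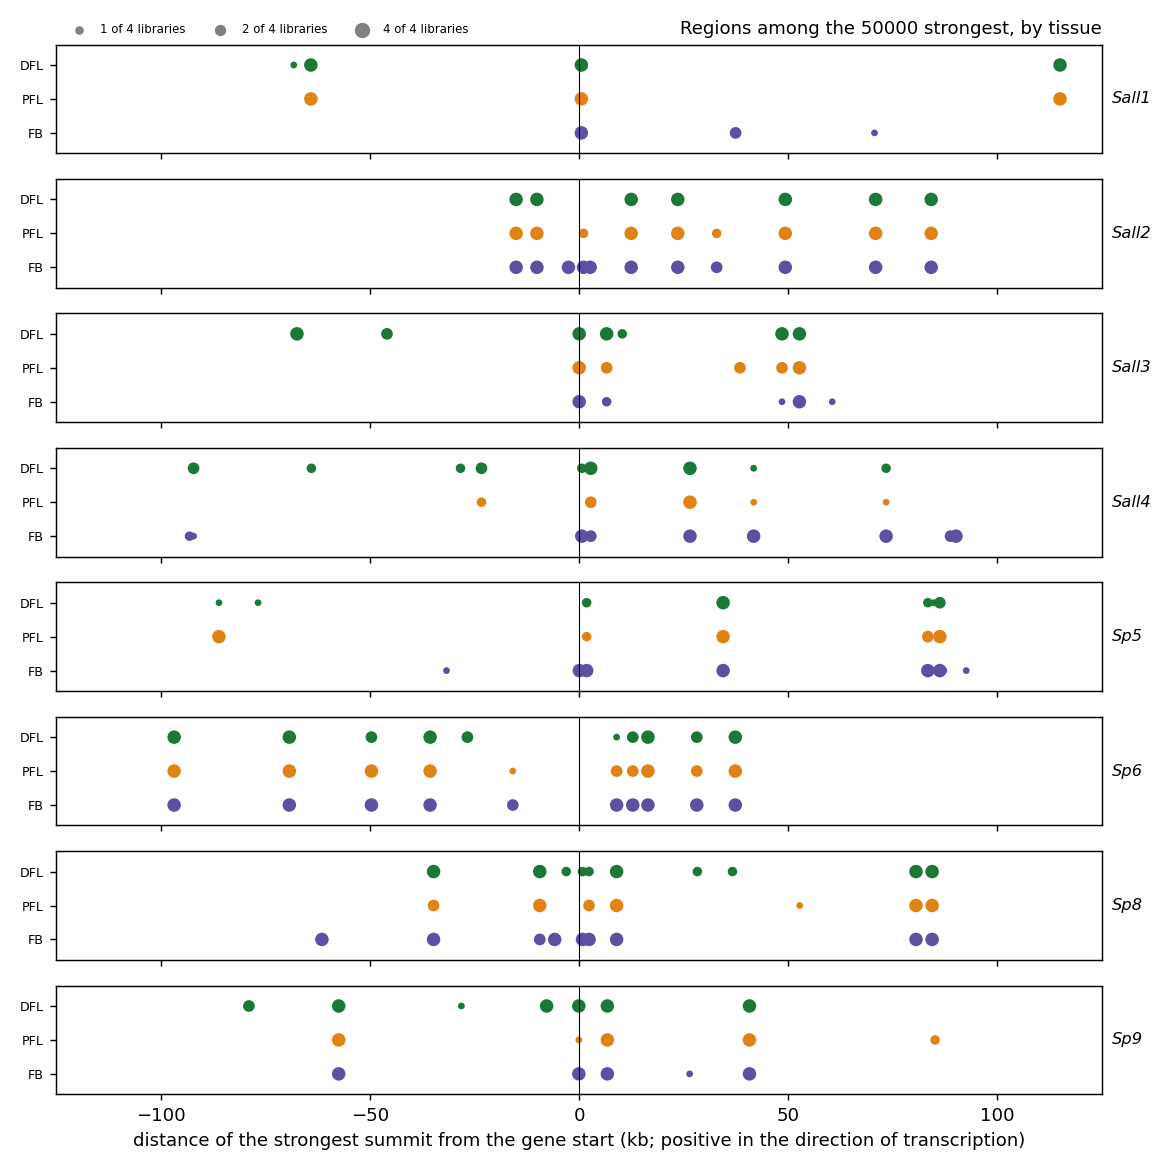
Consensus regions of the 8 genes by distance from the gene start (kb, horizontal), with 1 line per tissue and a point area that grows with the number of libraries, of 4, that hold the region among their 50000 strongest. Full lines of large points mark regions shared by the tissues, as around Sall2 and Sp6, while Sall1 has 2 regions in the DFL and PFL lines with no point in FB.

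The sequences of 4 regions are given for tissue differences described below. They come from a DFL region of Sp9, a limb region of Sall1, an FB region of Sp8 and a further Sp8 region. The further region had the largest difference in fold between limb and FB, a difference called on fold alone. Each sequence is 200 bases around the summit on the plus strand of mm10 (GRCm38.p6), at chr2:73264033-73264232, chr8:88929039-88929238, chr12:118784762-118784961 and chr12:118836825-118837024. All 4 are intergenic. Capitals mark TAATTA, a core bound by many homeodomain proteins, and GGGCGG, the GC box bound by Sp factors.
Sp9, 7.8 kb upstream: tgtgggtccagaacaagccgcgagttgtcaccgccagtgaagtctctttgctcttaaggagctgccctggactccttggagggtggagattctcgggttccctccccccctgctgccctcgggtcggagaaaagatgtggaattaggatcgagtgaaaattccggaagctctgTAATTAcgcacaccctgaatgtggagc
Sall1, 115 kb downstream: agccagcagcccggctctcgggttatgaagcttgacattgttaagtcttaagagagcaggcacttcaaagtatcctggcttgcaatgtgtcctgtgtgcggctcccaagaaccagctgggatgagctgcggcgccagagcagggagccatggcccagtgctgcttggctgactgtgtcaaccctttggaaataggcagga
Sp8, 61.5 kb upstream: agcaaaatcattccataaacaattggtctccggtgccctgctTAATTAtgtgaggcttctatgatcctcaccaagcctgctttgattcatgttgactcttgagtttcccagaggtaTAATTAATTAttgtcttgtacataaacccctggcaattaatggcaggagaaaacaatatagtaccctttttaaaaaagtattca
Sp8, 9.4 kb upstream: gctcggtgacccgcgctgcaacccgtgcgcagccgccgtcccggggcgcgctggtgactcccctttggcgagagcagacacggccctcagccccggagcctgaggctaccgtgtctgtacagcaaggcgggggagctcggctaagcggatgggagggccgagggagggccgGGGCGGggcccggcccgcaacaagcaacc

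The first comparison asks which of these regions separate the distal from the proximal limb bud. In the list of regions per library, 2 of 67 member regions present in DFL or PFL were in 4 of 4 DFL lists and in 0 of 4 PFL lists, against 3.27% of all regions tested. In the other direction there were 0 of 67, against 2.6%. A split of 4 against 0 has a 2-sided Fisher's exact p of 0.0286, the smallest that 4 against 4 libraries allow, not adjusted for the number of regions. Regions were picked by this split, so all of them have this p by definition and it adds no support. Both DFL regions were also absent from the FB lists, 2 of 84, beside 1.92% of all regions. The DFL shares were near those over all regions.

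The DFL region of Sp9, a ridge and forebrain factor, lay 7.8 kb upstream of its start at chr2:73263507-73264341. Its folds over the local background in wt 1, wt 2, 542 1 and 542 2, the order used throughout, were 5.42, 5.43, 4.87 and 5.48 in DFL. Only wt 1 had a region in PFL, with a fold of 4.34, and FB had regions with folds of 2.92, 2.16, 3.05 and 2.75. On fold, DFL lay above both other tissues without overlap, an order that its choice by the DFL lists favours. The order against FB is stated for fold alone, which also depends on the local background of each tissue. The window printed above holds 1 TAATTA.

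The DFL region of Sall3, a factor of the distal limb mesenchyme, lay 67.5 kb upstream at chr18:81053819-81054819. It had folds of 9.20, 7.82, 7.77 and 7.49 in DFL, no region in any PFL library, and 1 region in FB, in wt 2, with a fold of 3.12. In the earlier wt DFL library its fold was 12.7. It was the strongest Sall3 region more than 2 kb from a coding start.

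Further regions were called in DFL but were too weak to be in all 4 lists. In the Ola1 intron 78.9 kb upstream of Sp9, DFL folds were 5.13, 5.78, 3.69 and 8.31, with no region in the 8 other libraries. The Sp9 region 28.1 kb upstream had folds of 6.15, 3.50, 3.69 and 3.97 in DFL and 3.22 in PFL wt 1. A Sall3 intron region 10.3 kb downstream of the start had folds of 3.98, 4.53, 4.5 and 3.37 in DFL and no region elsewhere. These 3 were chosen after their values were seen. With a library without a region taken as 0, all 4 DFL folds exceeded all 4 PFL folds in 12 of the 84 regions, beside 11.4% of all consensus regions, and the reverse held in 2, beside 7.9%. A library without a region may hold signal under the caller's threshold, which the deposited lists do not show.

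**Figure D2:**
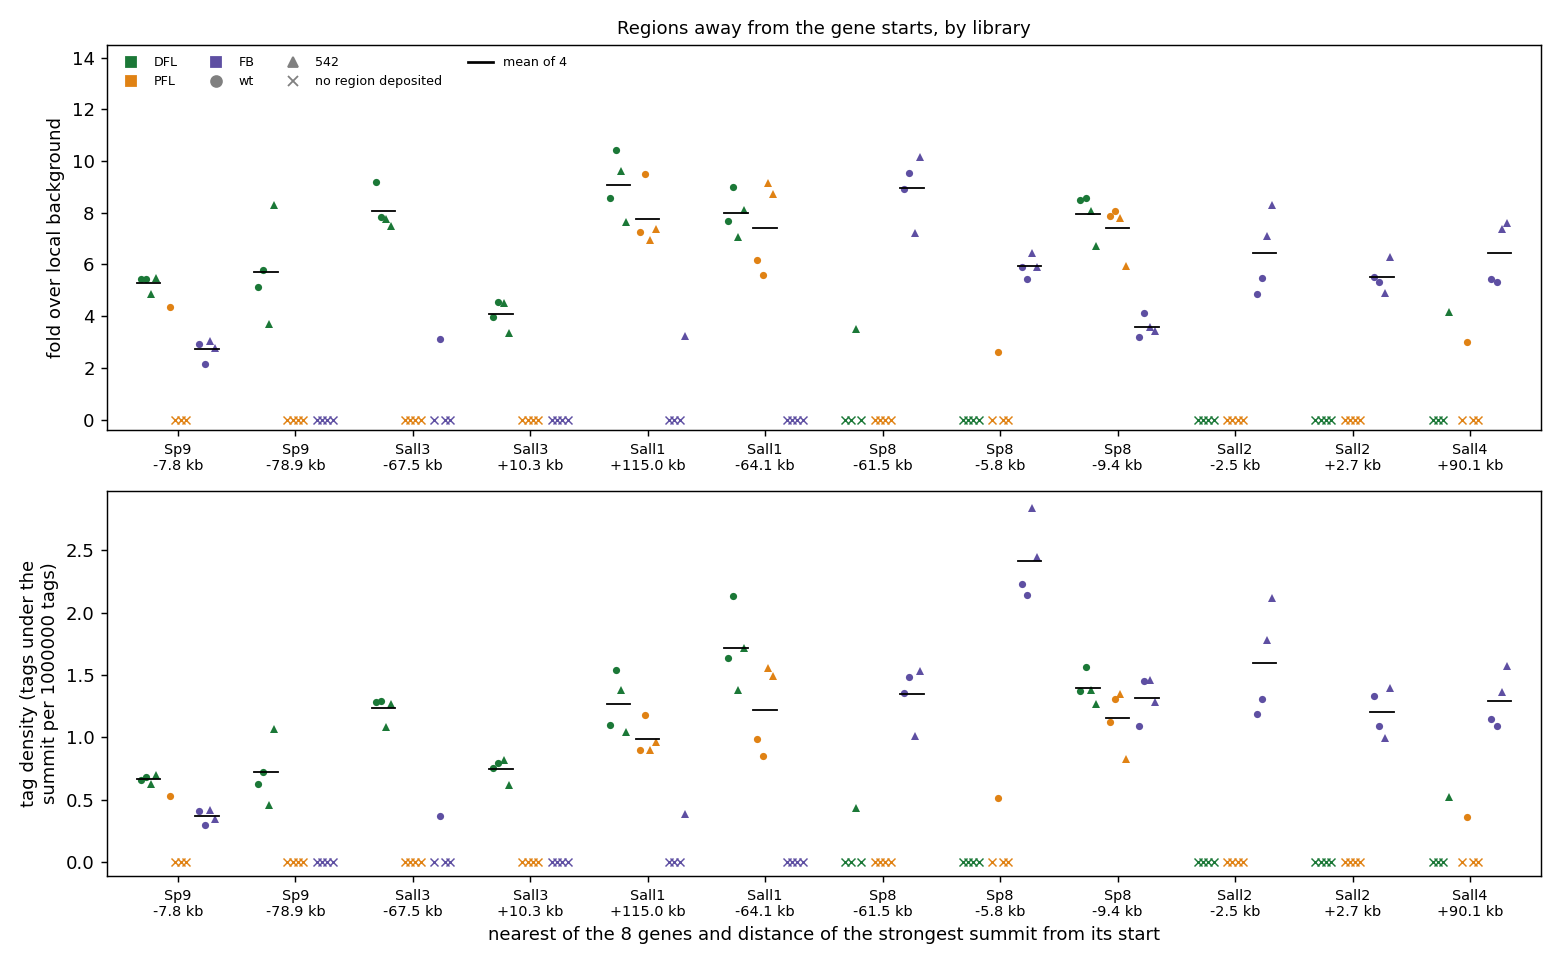
Fold over local background (upper panel) and tag density, the tags under the summit per 1000000 tags (lower panel) in 12 libraries for 12 regions away from gene starts. Circles are wt, triangles 542, colours tissues, crosses libraries with no deposited region and black lines means of 4 libraries; the Sp8 region 9.4 kb upstream has limb folds of 5.95 to 8.56 over FB folds of 3.19 to 4.10, while its tag densities overlap.

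At or near the starts of Sp9, Sall3, Sall4 and Sall1, DFL was higher than PFL on at least 1 of 2 scales. The deposited fold divides the tags under a summit, plus 1, by the tags expected from the local background, plus 1. Because the background differs between tissues, the tag density, the tags under the summit per 1000000 tags, was recovered from the fold and its p and is given beside it. A limma fit over regions called in all 12 libraries, centred on each library's median, tested 37 of the 84 regions among 28265. On fold, 1 of the 37 was higher in DFL than in PFL, against 3.88% of all tested, and 0 were lower, against 3.31%. At an unadjusted p under 0.05 these counts were 4 and 2. On tag density, 5 were higher and 2 lower, against 8.03% and 9.28%. The median log2 difference of the 37 was -0.01 on fold and 0.00 on tag density, beside -0.03 and -0.05 for all tested.

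The Sp9 start region, 57 bp upstream of the start at chr2:73271224-73272166, had the largest difference. Its folds were 11.0, 10.1, 7.89 and 8.93 in DFL, against 6.33, 3.80, 4.25 and 3.62 in PFL and 8.37, 7.56, 6.76 and 7.24 in FB. PFL was lowest and did not overlap either tissue, while DFL and FB overlapped. DFL exceeded PFL by 1.04 on the log2 fold scale (SE 0.15, limma adjusted p = 0.0014). The tag densities of the region were 2.29, 2.34, 1.5 and 2.22 in DFL, against 1.21, 0.646, 0.739 and 0.507 in PFL and 3.01, 2.53, 2.37 and 2.65 in FB. On that scale the DFL excess over PFL was 1.42 (limma adjusted p = 1.4e-09). PFL also fell below FB, by 0.56 on log2 fold (adjusted p = 0.011) and by 1.66 on log2 tag density (adjusted p = 7.5e-13). Between DFL and FB the 2 scales disagreed in sign, with 0.48 on fold (adjusted p = 0.026) and -0.24 on tag density (adjusted p = 0.22), and the call on fold was lost without any 1 of 6 libraries. The fold call for PFL against FB was lost without wt PFL 2 (-0.38, adjusted p = 0.053). The local background, not scaled for depth, was 6.98 to 10.5 tags in DFL and 17.9 to 24.6 in FB.

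The Sall3 start region, at chr18:80985762-80988089 over the first exon, was also lowest in PFL. Its folds were 6.23, 6.0, 7.54 and 6.16 in DFL, against 3.80, 4.36, 3.98 and 5.16 in PFL and 7.73, 7.50, 9.07 and 7.51 in FB. All DFL folds exceeded all PFL folds. The DFL excess over PFL was 0.53 on log2 fold, which missed the threshold (SE 0.15, limma adjusted p = 0.055), and 0.96 on log2 tag density (adjusted p = 2.2e-06). PFL fell by 0.68 against FB on log2 fold (adjusted p = 0.0036), and the difference in log2 tag density was -1.47 (adjusted p = 1.9e-12).

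Sall4, a factor of the early limb bud, has regions at both of its annotated starts. The upstream one, 0.7 kb inside the gene at chr2:168766556-168767466, also covers an exon of the noncoding gene Gm14261, and ATAC-seq has no strand to separate them. Its folds were 4.31, 3.60, 4.34 and 4.60 in DFL, against 2.57, 3.71, 2.34 and 3.26 in PFL and 7.34, 6.43, 4.94 and 7.64 in FB. FB lay above both limb tissues, and the ranges of DFL and PFL overlapped. PFL fell by 0.95 against FB on log2 fold (limma adjusted p = 0.0012). DFL exceeded PFL by 0.77 in log2 tag density (adjusted p = 0.0054), and the difference on log2 fold was 0.46 (adjusted p = 0.16). The second start region, 2.8 kb inside the gene, had folds of 5.78, 5.40, 5.17 and 4.56 in DFL and 4.18, 3.80, 3.84 and 3.51 in FB. There DFL was higher than FB by 0.59 on log2 fold (adjusted p = 0.013), a call that was absent on tag density, with 0.13 (adjusted p = 0.63), and on fold without 542 FB 2 (adjusted p = 0.053).

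The Sall1 region nearest the start, 547 bp into the gene at chr8:89042448-89043996, had folds of 5.82, 7.03, 6.19 and 7.01 in DFL, against 4.91, 6.27, 5.51 and 5.29 in PFL and 6.94, 5.93, 6.77 and 6.52 in FB. The folds overlapped, with a DFL excess over PFL of 0.18 on log2 fold (limma adjusted p = 0.49). Tag densities did not overlap, at 2.88 to 3.66 in DFL and 1.65 to 2.01 in PFL, a log2 difference of 0.76 (adjusted p = 5.4e-06). The local background, 19.3 to 26.2 tags in DFL and 10.9 to 16.5 in PFL without scaling for depth, moved with the tags. Its part in the difference was not tested.

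**Figure D3:**
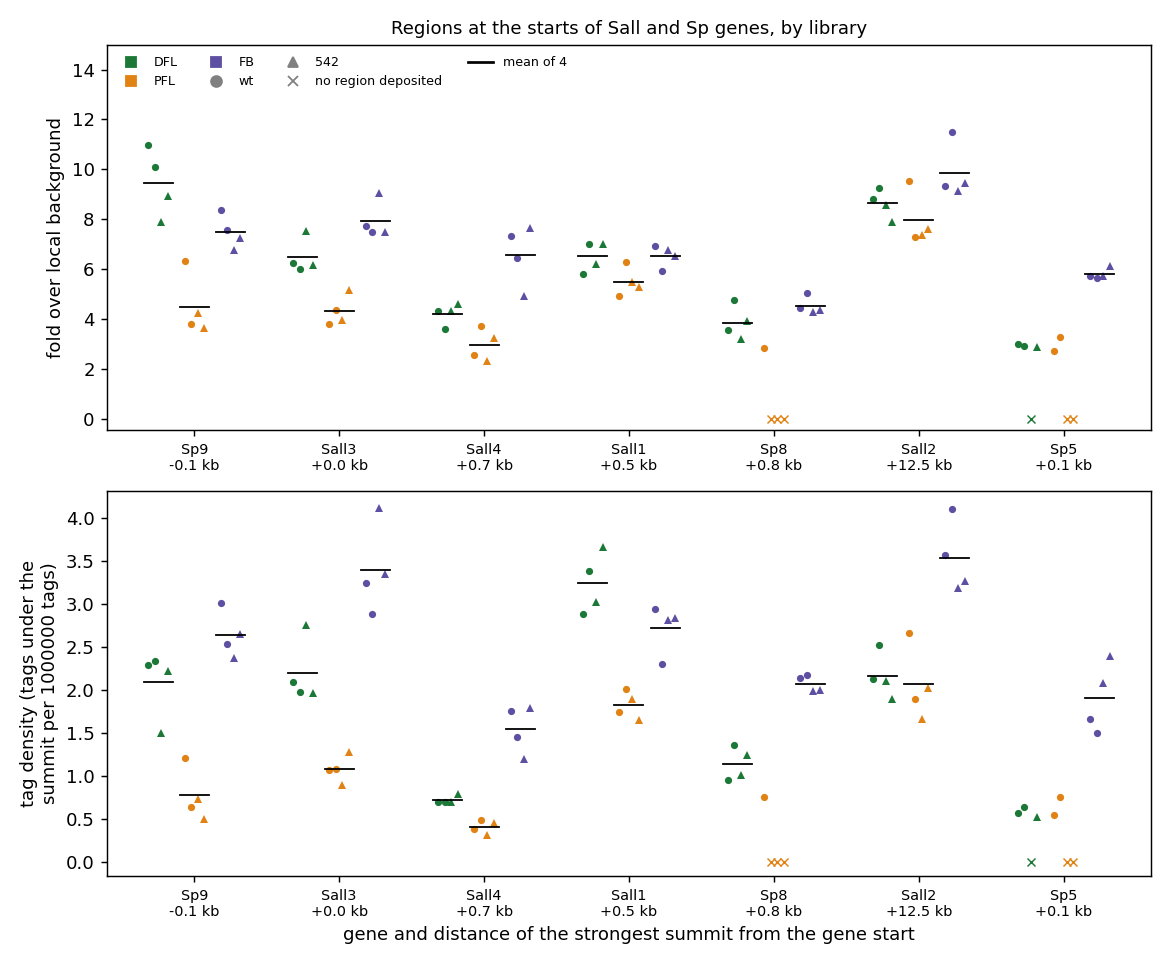
Fold over local background (upper panel) and tag density, the tags under the summit per 1000000 tags (lower panel) at start regions of 7 of the genes in 12 libraries, with circles for wt, triangles for 542, crosses for libraries with no deposited region and black lines for means of 4. At the Sp9 and Sall3 starts the PFL points lie below the DFL and FB points on both scales, and at the Sp5 start the FB folds of 5.65 to 6.13 lie above every limb fold.

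The starts of Sp8, Sp5 and Sp6 were weak or uncalled in the limb. The Sp8 start region, 0.8 kb inside the gene, had folds of 3.57, 4.76, 3.19 and 3.92 in DFL, 2.84 in PFL wt 1 with no region in the 3 other PFL libraries, and 4.45, 5.05, 4.28 and 4.35 in FB. The Sp5 start region, at chr2:70474327-70475426, had folds of 2.99, 2.94 and 2.86 in 3 DFL libraries, 2.74 and 3.29 in the wt PFL libraries and none in 542 PFL. In FB its folds were 5.72, 5.65, 5.73 and 6.13, all above the limb. No consensus region lay at the start of Sp6, an ectodermal factor also known as epiprofin. Weak regions there were deposited in 1 DFL and 2 PFL libraries, with folds of 2.56 to 3.78, and in 0 FB libraries. The Sall2 start region at its internal promoter, 12.46 kb into the gene, was called in all 12 libraries with folds of 7.91 to 9.27 in DFL, against 7.31 to 9.52 in PFL and 9.15 to 11.5 in FB. On fold this region showed no call in any tissue contrast. On log2 tag density DFL fell by 0.59 against FB (limma adjusted p = 0.00015) and PFL fell by 0.61 (adjusted p = 9.1e-05).

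The second comparison sets the limb against the forebrain. In 8 of 8 limb lists and 0 of 4 FB lists there were 2 of 84 regions, against 4.82% of all regions. In 4 of 4 FB lists and 0 of 8 limb lists there were 6 of 84, against 8.77%. Such a split has a 2-sided Fisher's exact p of 0.00202, the smallest possible, not adjusted, which again follows from how the regions were picked. Both shares were below that over all regions, and the FB regions outnumbered the limb regions among all regions as well.

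Both limb regions belonged to Sall1, which has no other coding gene within the 100 kb window. One lay 115 kb downstream of its start at chr8:88928486-88929633. It had folds of 8.57, 10.4, 9.60 and 7.62 in DFL and 7.24, 9.5, 6.93 and 7.39 in PFL, and in FB a fold of 3.23 in 542 2 alone. The other lay 64.1 kb upstream at chr8:89107459-89109002, with folds of 7.68, 9.01, 7.07 and 8.12 in DFL, against 6.16, 5.61, 9.15 and 8.74 in PFL and no region in FB. In both, the ranges of DFL and PFL overlapped. Neither 200-base window holds TAATTA, the GC box, the GT box GGGTGTGG or TTTATTG, a core bound by HOX13 proteins.

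The FB regions were spread over Sp8, Sall2, Sall4 and Sp5. The 2 Sp8 regions lay 61.5 kb and 5.8 kb upstream of its start. The first, at chr12:118784579-118785436, had FB folds of 8.92, 9.55, 7.21 and 10.2 and a limb region in DFL 542 1 alone, with a fold of 3.50. The second, at chr12:118840191-118841275, had FB folds of 5.91, 5.45, 6.46 and 5.91 and a limb region in PFL wt 2 alone, with a fold of 2.63. Every FB fold lay above the limb value in both, an order that their choice by the FB lists favours. The first window holds 3 copies of TAATTA, of which a pair overlaps.

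Sall2 had FB regions 2.5 kb upstream and 2.7 kb downstream of its first start. Upstream, at chr14:52331034-52331511, FB folds were 4.85, 5.46, 7.10 and 8.30, and in the intron, at chr14:52325945-52326290, they were 5.52, 5.33, 4.89 and 6.28. Neither had a region in any limb library. A Sall4 region 90.1 kb downstream of its start, inside an intron of Atp9a at chr2:168677211-168678220, had FB folds of 5.45, 5.32, 7.38 and 7.61, beside 4.15 in DFL 542 2 and 3.02 in PFL wt 2. The sixth was the Sp5 start described above. Coordinates of the Sall4 region are those of mm10 after positions of the 542 libraries beyond the insertion were moved back by its length.

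In the limma fit on fold, 7 of 37 regions were higher in DFL than in FB, against 19.2%, and 3 were lower, against 13.8%. For PFL against FB the counts were 7, against 22.4%, and 6, against 13.8%. The regions higher in the limb lay at Sp8, Sall4, Sp9, Sp5 and Sall2, and several sat at the starts of neighbouring genes. On tag density the balance turned, with 3 higher and 10 lower in DFL against FB, beside 23.2% and 29.4%. For PFL against FB it was 2 higher and 15 lower, beside 24.8% and 24.9%. Of the 37 regions, 12 differed in sign between the scales for DFL against FB and 16 for PFL against FB, and 6 did for DFL against PFL. DFL and PFL are set against the same FB libraries. A direction against FB is therefore reported only with its scale.

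**Figure D4:**
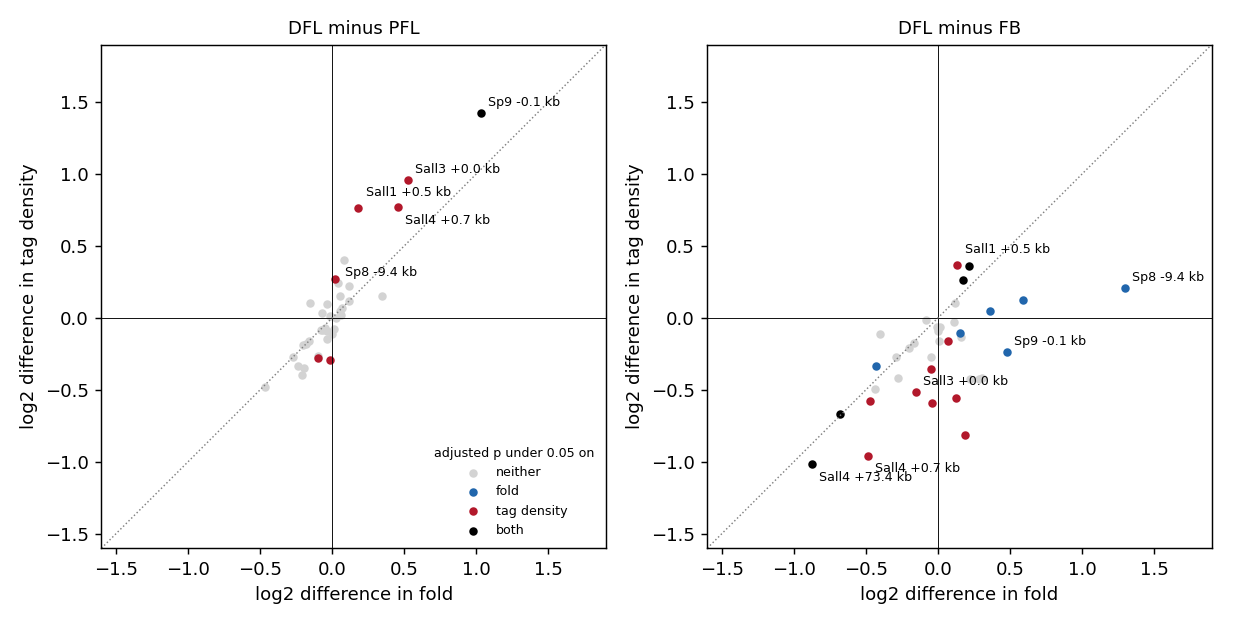
Log2 difference in fold (horizontal) against log2 difference in tag density (vertical) for the 37 tested regions, DFL minus PFL (left) and DFL minus FB (right), coloured by the scale on which limma's adjusted p was under 0.05; the dotted line marks equal differences. The Sp9 start was called on both scales for DFL minus PFL, and the Sp8 region 9.4 kb upstream on fold alone for DFL minus FB.

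The largest difference on fold was at the Sp8 region 9.4 kb upstream, chr12:118836194-118837531. Its folds were 8.48, 8.56, 8.08 and 6.70 in DFL, against 7.89, 8.06, 7.81 and 5.95 in PFL and 3.19, 4.10, 3.60 and 3.42 in FB. The limb libraries lay above FB without overlap, by 1.30 on the log2 scale for DFL (SE 0.15, limma adjusted p = 1.3e-05) and 1.26 for PFL (adjusted p = 1.7e-05). Its tag densities were 1.27 to 1.57 in DFL, against 0.827 to 1.35 in PFL and 1.09 to 1.46 in FB, which overlapped. On that scale the log2 differences from FB were 0.21 (adjusted p = 0.33) and -0.03 (adjusted p = 0.89). The local background was 4.38 to 7.96 tags in the limb and 18.6 to 25.4 in FB. The fold difference moved with this background, and its part in the result was not tested. The printed window is rich in CpG, with 22 in 200 bases, and holds 1 GC box.

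The Sall4 region 73.4 kb downstream, inside Atp9a, was lower in DFL than in FB on both scales. Its folds were 3.60, 6.48, 5.16 and 3.59 in DFL, against 7.43, 4.36, 4.65 and 3.99 in PFL and 9.28, 7.57, 8.88 and 11.7 in FB. FB lay above both limb tissues. DFL fell by 0.88 against FB on log2 fold (SE 0.21, limma adjusted p = 0.0058) and the difference in log2 tag density was -1.02 (adjusted p = 4.6e-05). The Sp6 window gave 2 more regions lower in DFL, at the Mrpl10 start 28.1 kb downstream with a log2 fold difference of -0.68 (adjusted p = 0.041) and at the Scrn2 start 16.5 kb downstream with -0.43 (adjusted p = 0.045). The first of these calls was lost without any 1 of 6 libraries and the second without any 1 of 7. On log2 tag density the Mrpl10 start was also called, with -0.67 (limma adjusted p = 0.0078). The Scrn2 start was not, with -0.33 (adjusted p = 0.11). The strongest region away from coding starts, 9.0 kb downstream of Sp8, had folds of 16.7 to 20.1 in all 12 libraries. Its log2 fold was higher in DFL than in FB by 0.15 (adjusted p = 0.021), a call lost without any 1 of 6 libraries, while its log2 tag density differed by -0.10 (adjusted p = 0.34). For PFL against FB this region was called in opposite directions, with 0.13 on log2 fold (adjusted p = 0.040), a call lost without any 1 of 6 libraries, and -0.37 on log2 tag density (adjusted p = 0.00034).

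The number of regions within 100 kb of each gene gave a second view. Each library contributed its 50000 strongest regions, and log2(n + 1) was fitted with limma over 19521 genes. Against PFL, 2 of the 8 genes were higher in DFL, beside 3.2% of all genes, and 0 were lower, beside 3.3%. For Sp9, DFL libraries held 7, 6, 5 and 6 regions and PFL libraries 5, 4, 3 and 3. The difference was 0.57 on the log2 scale (SE 0.094, limma adjusted p = 0.019), and the call was lost without wt DFL 1 (adjusted p = 0.054) or 542 PFL 1 (adjusted p = 0.050). For Sall4 the counts were 4, 4, 8 and 7 in DFL and 5, 2, 2 and 2 in PFL, which overlapped, with a difference of 0.87 (adjusted p = 0.047). The highest Sall4 counts in DFL were those of the 2 libraries of genotype 542. The call was lost when any 1 of 10 libraries was left out, and adjusted p then reached 0.11.

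Against FB, 2 genes were higher in DFL, beside 16.6% of all genes, and 2 lower, beside 19.1%. Sall3 was higher, with 6, 7, 7 and 5 regions in DFL and 3, 4, 3 and 2 in FB, which did not overlap (log2 difference 0.87, limma adjusted p = 0.0095). Sp9 was higher by 0.41 (adjusted p = 0.014), with 4, 4, 4 and 5 regions in FB. Sall2 had 7 regions in each DFL library and 11, 11, 10 and 11 in FB, and fell by 0.55 (adjusted p = 0.0013). Sp5 fell by 0.65 (adjusted p = 0.042), with 6, 3, 2 and 3 regions in DFL and 5, 6, 5 and 7 in FB, an overlapping difference that was lost without any 1 of 11 libraries. In PFL 0 genes were higher than in FB, beside 18.3%, by limma and also at an unadjusted p under 0.05. There Sall2 fell by 0.39 (adjusted p = 0.0051), Sall4 by 1.25 (adjusted p = 0.0031) and Sp8 by 0.48 (adjusted p = 0.024, lost without any 1 of 7 libraries), beside 19.2% of all genes lower. Sall1, with 1 to 4 regions in every library, and Sp6, with 6 to 10, passed no tissue test.

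**Figure D5:**
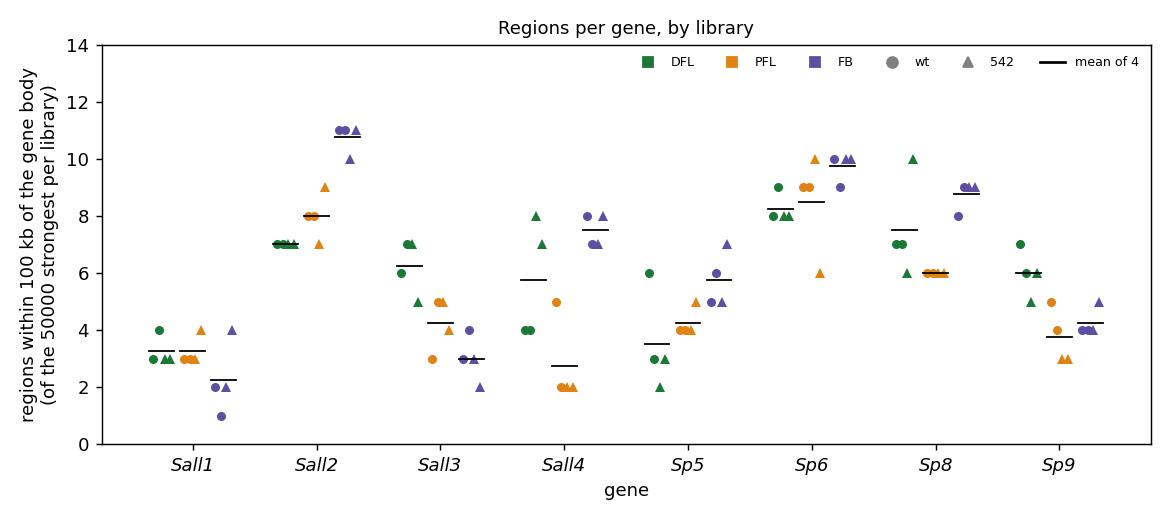
Number of regions within 100 kb of the gene body among the 50000 strongest of each library (vertical) for the 8 genes, with colours for tissues, circles for wt, triangles for 542 and black lines for means of 4 libraries. Sall2 has 10 or 11 regions in FB and 7 in each DFL library, and Sall3 has 5 to 7 in DFL and 2 to 4 in FB.

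Genes of the same pathways were counted for context. Of 20 genes of ridge and limb signalling, among them Fgf8, Fgf10, Wnt7a, Bmp4 and Msx2, 2 passed the same limma test, at an adjusted p under 0.05, with more regions in DFL than in PFL and 0 with fewer, beside the 3.2% and 3.3% of all genes. Against FB, 7 passed with more and 3 with fewer in DFL (16.6% and 19.1% of all genes), and 3 with more and 4 with fewer in PFL (18.3% and 19.2%). Dlx5 and Dlx6, both among the 7, had identical values (log2 difference 0.42, limma adjusted p = 0.014) and do not count as separate results. Of the 5 other Sp genes listed, Sp1, Sp2, Sp3, Sp4 and Sp7, 0 passed this test between DFL and PFL in either direction, the smallest adjusted p being that of Sp4 (log2 difference 0.32, adjusted p = 0.079). Genes with the most similar profile of counts over the 12 libraries were found among 14505 genes on other chromosomes with a mean of at least 5 regions. For Sall2 they were Rmdn1 and Dynll1 (Pearson's r = 0.986 and 0.971), for Sall4 Gucd1 and Tubgcp3 (0.934 and 0.920) and for Sp6 Nedd4l and Fxyd4 (0.954 and 0.923). For Sp8 they were E330009J07Rik and Copb2, both at 0.930. Sall1, Sall3, Sp5 and Sp9 had means under 5 and were not matched.

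The third comparison asks whether allele 542 changed accessibility around these genes. In 542 against wt over the 3 tissues, 0 of 37 regions were higher, beside 0.439% of all regions, and 0 lower, beside 0.276%. At an unadjusted p under 0.05 there were 3. The log2 fold differences ran from -0.31 to 0.21, with a smallest limma adjusted p of 0.22. On tag density 0 regions were called in either direction, beside 3.16% and 1.79% of all regions, with 5 at an unadjusted p under 0.05. No gene was called on its number of regions, beside 0.379% and 0.287%, with 0 at an unadjusted p under 0.05. For the number of regions per gene, no difference between genotypes varied detectably with tissue, the smallest limma adjusted p for such an interaction being 0.38, at Sp9.

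In single tissues, a few regions were in both lists of 1 genotype and neither of the other. In DFL this was 1 of 61 for wt, beside 4.21%, and 3 of 61 for 542, beside 3.42%. In PFL it was 2 of 49 for wt, beside 4.38%, and 1 of 49 for 542, beside 3.49%. In FB it was 1 of 62 for each genotype, beside 2.94% and 2.79%. None of these regions recurred in all 3 tissues, and with 2 against 2 libraries a 2-sided Fisher's exact test cannot go below p = 0.333. The Sp5 region 1.8 kb downstream of its start went opposite ways in the limb, with wt and then 542 folds of 4.40, 5.44, 3.47 and 4.01 in DFL and 3.63, 3.29, 4.74 and 4.07 in PFL. The interaction of genotype with limb tissue was -0.70 on log2 fold and did not pass (limma adjusted p = 0.54). Genotype cannot be told apart from the mapping, since wt reads were aligned to mm10 and 542 reads to the rebuilt genome, nor from the lower depth of the 542 limb libraries.

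Short motifs were counted on both strands in 200-base windows around the summits, as a description. TTTATTG, the HOX13 core, was in 3 of the 84 member windows (3.57%) and in 4.66% of all windows, in 13.3% of regions of DFL not PFL and in 4.02% of those of PFL not DFL. The 3 members were the Sp9 region 78.9 kb upstream, the Sall4 region 28.4 kb upstream and the Sall3 region 48.5 kb downstream. The first had no region outside DFL, and the Sall4 region had DFL folds of 3.52, 5.95, 3.69 and 5.85 beside 3.22 and 2.41 in the wt PFL libraries alone. Neither member region of DFL not PFL, of Sp9 and of Sall3, held this core. A link of the core with DFL regions of the members was not tested. The GC box GGGCGG was in 24 of 84 (28.6%), in 13.9% of all windows and in 48.25% of those of regions in all 12 lists, the class that holds 23 of the 84, and the GT box GGGTGTGG in 1 of 84, beside 1.41%. TAATTA was in 11 of 84 (13.1%), beside 9.96% of all windows, 26.2% of those of FB not limb and 19.98% of those of DFL not PFL.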

How the data were processed

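Per the study's methods, the authors trimmed reads with cutadapt, aligned them with Bowtie (wt on mm10, 542 on a genome with the insertion), removed low-quality, discordant, mitochondrial and duplicate alignments with bamtools and Picard, and converted them with bedtools. Peaks were called by the authors in each library with MACS2 without a control, on tags extended to 200 bp. The deposited columns used were the fold over local background (a ratio) and the −log10 p-value and −log10 q-value. The deposited score was not used.

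Sub-peaks were joined into regions, and 542 positions beyond the insertion were moved back by its length. Regions were ranked by −log10 q and then by fold, and the 50000 strongest per library formed the lists. Tags under a summit were solved from the fold and the Poisson −log10 p for at least 99.998% of regions in each library, which also gave the depth. The tests were limma 3.58.1 in R 4.3.3 (log2 fold, genotype and tissue as groups, Benjamini-Hochberg over all regions or genes, threshold 0.05) and Fisher's exact test from SciPy 1.17.1. On simulated data for 28265 regions, 88% of changes of 1 on the log2 scale and 40% of changes of 0.5 were recovered, with 5 false calls. Only regions called in all 12 libraries entered the fold fits. Named regions were, for each gene, the start region (within 500 bp) and the strongest region over 2 kb from a coding start, all presence classes and the 3 smallest adjusted p per direction. Genes and lists were chosen with earlier results of these data known. Alternatives were other lists, windows, scalings, a replicate block, the earlier wt library and leaving out each library.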

Additional observations from a re-analysis of the deposited data

How the results depend on the processing

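Without 1 library at a time, the number of called regions ranged from 1 to 2 (DFL against PFL, 2 without wt DFL 2 or 542 PFL 2), 4 to 13 (DFL against FB, 4 to 6 without wt DFL 1, 542 DFL 1, wt FB 1 or 542 FB 1), 6 to 14 (PFL against FB, 6 to 8 without wt PFL 1, wt FB 1, wt FB 2 or 542 FB 2) and 0 to 0 (542 against wt), and the number of called genes from 0 to 2, 3 to 4, 2 to 3 and 0 to 0. Regions in presence classes numbered 2 in DFL against PFL, 8 in limb against FB and 9 in 542 against wt, with ranges of 2 to 4, 8 to 9 and 10 to 16. Called regions of DFL against PFL, 1 in all, became 2 without centring, 2 with quantile normalization, 7 on tag density and 0 where a −log10 q of 10 was required. That requirement left 6 for DFL against FB and 5 for PFL against FB, from fewer regions tested. Called genes of DFL against PFL, 2 in all, became 1 with the 20000 strongest regions, with all deposited regions, with a window of 50 kb and with no filter on low counts. For DFL against FB they became 0 with the 20000 strongest and 0 with all regions, and for PFL against FB 1 with all regions. Presence in DFL against PFL became 1 with the earlier wt library, 1 with the 20000 strongest and 7 with all regions. Limb against FB became 0 and 13, and 542 against wt 2 and 23, under the latter settings. Requiring a larger overlap with the region changed none of these by construction.

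With the replicate number as a block, 1 gene was called for DFL against PFL, and no other count of calls moved by over 1.5 times. Same-numbered libraries did not deviate together (correlations -0.034 to 0.016). No pairing by number was seen, though deviations within groups of 2 libraries cannot exclude it.

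Differences called on fold that changed sign on tag density were Sall4 +2.8 kb for PFL against FB (-0.28), Sp8 +9.0 kb for DFL (-0.10) and PFL (-0.37) against FB, the Sp9 start for DFL against FB (-0.24) and Sp8 -9.4 kb, Sall2 +70.9 kb and Sall2 +49.3 kb for PFL against FB (-0.035, -0.043 and -0.080). Without centring, Sp8 +9.0 kb (-0.078), Sp9 -57.5 kb (-0.020), Sall2 +70.9 kb (-0.079) and Sall2 +49.3 kb (-0.075) for PFL against FB changed sign, as did the number of regions of Sall3 for DFL against FB with the 20000 strongest (-0.15). Before centring, the median log2 fold differed by -0.14 for DFL and -0.21 for PFL against FB. The cause of these changes was not tested. The Sp9 start kept its call for DFL against PFL without each of the 12 libraries, without centring, with quantile normalization, with the block and on tag density, from 0.86 to 1.42. It was not tested where a −log10 q of 10 was required, since 3 PFL libraries were below it. A region absent from a list may lie under the caller's threshold, and lower depth makes this more frequent.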
